A study of Mus musculus with 26 samples.

Results

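The genes described are the cytosolic ribosomal protein genes of mouse cardiac stromal cells. They were chosen by symbol alone: every gene named Rps or Rpl with a number (with the endings a, l, x or a further digit) and the 3 stalk genes Rplp0, Rplp1 and Rplp2, without the Rps6k kinases. This gave 83 of the 24421 genes in the counts. The 26 libraries came from hearts of C57BL/6 mice (B6.129S4-Pdgfratm11(EGFP)Sor/J) with the genotype PDGFRa H2BEGFP+, in which a nuclear green fluorescent protein reports Pdgfra; every group carries this allele. Cells free of the leukocyte marker CD45 and the endothelial marker CD31 and positive for the reporter were sorted and split by the surface protein Sca-1. There were 5 positive and 4 negative libraries of undamaged hearts, and hearts taken after ligation of the left anterior descending (LAD) coronary artery gave 1 of each gate and 4 with no labelled gate at day 7, 2 and 2 at day 14, and 4 positive and 3 negative at day 28. The labels give neither age nor sex, and no label ties a library to an animal or a pool, so p-values measure only the spread between these libraries, which may be technical. Undamaged hearts are the sole controls: no sham operation is labelled.

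Ribosomal proteins and ribosomal RNA make up the small subunit, which reads the messenger RNA, and the large subunit, which joins amino acids. The proteins are made in balanced amounts, and their messengers begin with a run of pyrimidines, the terminal oligopyrimidine (TOP) tract, through which the growth pathway of mTOR and Larp1 controls their translation and stability. Most of these genes have processed pseudogenes, intronless copies left by reverse transcription, so a short read from one gene can match several places in the genome.

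Most members share sequence with copies elsewhere in the genome. In GENCODE M21 transcripts, 79 of the 83 genes had at least 1 window of 75 bases that also occurs in another, non-overlapping gene, and 36 had at least 50% of their windows shared; the median was 47.9%. Of 684 sharing entries, 665 were pseudogenes. Rpl7a, a large-subunit protein, shared windows with 64 other genes, the most of any. Rps3, Rpl3l and Rpl39l were among those that shared none. Rps27, Rpl34, Rpl30 and Rpl26 encode proteins of every cytosolic ribosome but hardly had a count, and in each case the count table holds a gene with an identical stretch. They are shown because the first 75 coding bases of each member are found without a mismatch in the copy (5′ to 3′, all lower case since no base differs; GRCm38 gene positions follow).

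Rps27: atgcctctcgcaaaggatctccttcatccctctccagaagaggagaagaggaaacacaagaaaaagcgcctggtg
Rps27rt: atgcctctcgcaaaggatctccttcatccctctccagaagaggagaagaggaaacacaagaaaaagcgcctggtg
Rpl34: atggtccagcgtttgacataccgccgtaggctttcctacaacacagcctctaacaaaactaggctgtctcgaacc
Rpl34-ps1: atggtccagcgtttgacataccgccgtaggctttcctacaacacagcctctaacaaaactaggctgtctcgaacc
Rpl30: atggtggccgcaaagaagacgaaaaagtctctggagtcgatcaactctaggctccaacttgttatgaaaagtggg
Rpl26: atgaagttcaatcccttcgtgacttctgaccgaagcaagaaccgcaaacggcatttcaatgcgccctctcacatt

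Rps27 (chr3:90212522-90213651, minus strand) had 1119 counts over all 26 libraries, and its copy Rps27rt (chr9:114982366-114982739, minus strand) had 0. Rpl34 (chr3:130726831-130730398, minus strand) had 585 counts and Rpl34-ps1 (chr6:71124610-71124963, plus strand) had 0. Rpl30 (chr15:34440505-34443640, minus strand) had 1421 counts and Gm12191, which carries the same stretch on chromosome 11, had 0. Rpl26 (chr11:68901583-68906989, plus strand) had 3 counts and Gm15772 on chromosome 5 had 0. Neither a member nor its copy held many reads in these 4 pairs; how the counting treated reads with several matches is not given in the sources used here. The median level per coding kilobase was 966 CPM (counts per 1000000 library counts, with TMM scaling factors from edgeR) for the 18 members with under 25% of windows shared, 651 for the 28 with 25% to 50%, 445 for the 20 with 50% to 75% and 536 for the 16 with 75% and over. Rpl10, with 91.9% of its windows shared but no sharing gene in the table, averaged 548 CPM, and Rpl14, whose copy Rpl14-ps1 held 4188 counts, had 138295.

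**Figure D1:**
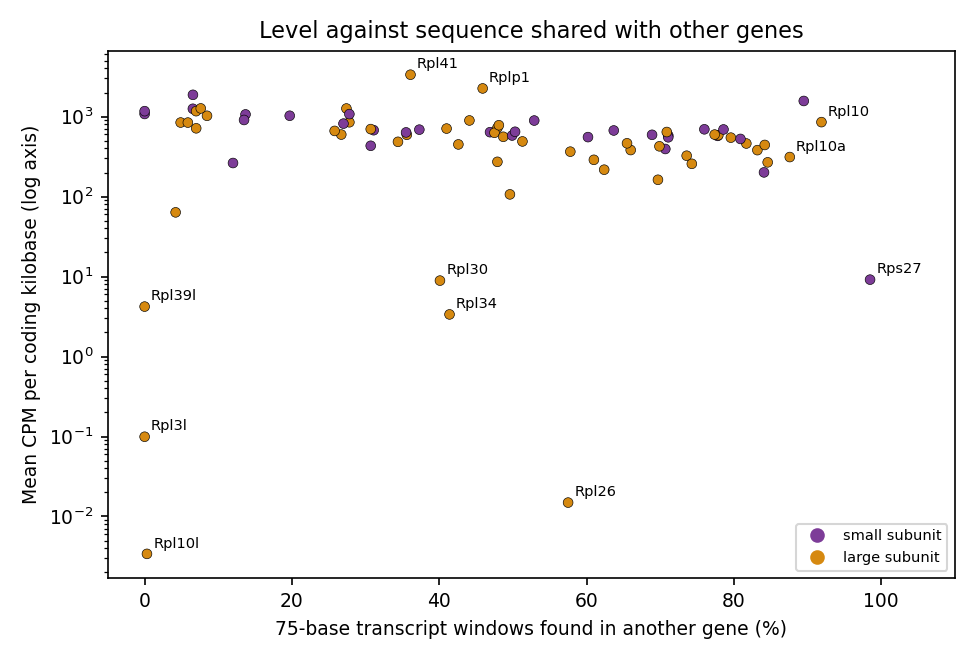
Mean CPM per coding kilobase over the 26 libraries (log axis) against the percentage of 75-base transcript windows that occur in another gene, 1 point for each member with an annotated coding sequence, coloured by subunit. Rps27, Rpl34, Rpl30 and Rpl26 lie far below the other genes of similar sharing, while Rpl10 at 91.9% stands at 853 CPM per coding kilobase.

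Runs of pyrimidines were frequent near the annotated start sites of the members. RefSeq (GRCm38.p6) promoter entries existed for 62 of the 83 genes with 74 start sites. A run of at least 8 C or T letters on the sense strand within 50 bases of the start was found at 78.4% of these sites, against 35.7% of all 32851 sites in the table. On the opposite strand the shares were 23% for members and 38.1% for all sites. Shown are 30-base windows for the 8 genes with the smallest p at day 7 and for Rps28, whose counts varied most by fold, with the longest run in capitals. The search took any place in the window, so a run may lie before the annotated start and outside the messenger: the one of Rps16 begins 47 bases before it, that of Rps25 22 and that of Rpl5 20.

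Rpl27a: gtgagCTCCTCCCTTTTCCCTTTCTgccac
Rps25: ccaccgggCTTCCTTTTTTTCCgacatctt
Rpl5: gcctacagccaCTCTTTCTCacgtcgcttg
Rpl35a: cggggcttgCCTTCCTCTTTCCgccatctt
Rps16: acgTCCCCTCTCaggcttcgacgtcagccg
Rpl9: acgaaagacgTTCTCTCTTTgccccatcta
Rps12: ccaccgccggCCTTTTCCCCTgccgccgcc
Rpl31: ctcgccacaCCTCTTCCTCCTCgcctcccc
Rps28: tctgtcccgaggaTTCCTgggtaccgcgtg

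The windows lie at chr7:109519186-109519215 (Rpl27a), chr9:44407684-44407713 (Rps25), chr5:107900497-107900526 (Rpl5), chr16:33056468-33056497 (Rpl35a), chr7:28350639-28350668 (Rps16), chr5:65391383-65391412 (Rpl9, minus strand), chr10:23787182-23787211 (Rps12, minus strand), chr1:39367824-39367853 (Rpl31) and chr17:33824567-33824596 (Rps28, minus strand). The Rpl27a run of 20 letters begins 4 bases before the annotated start. Rps28 had only 5 letters in a row, which says no more than that the run is not in this window. A run was present for 28 of the 32 genes with an entry that were lower at day 7 and for 22 of the 27 that were tested and not called.

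The libraries held 6792786 to 48836726 counts assigned to genes, and the 83 members made up 1.70% to 4.38% of them. Ly6a, which encodes Sca-1, was at 280 to 1284 CPM in labelled positive and 18.8 to 91.9 CPM in labelled negative libraries, and summed CPM of 6 stromal markers, Pdgfra among them, was 54821 to 91827. In 16 titles the replicate code follows a number (prefixed), and in the other 10 it stands alone or, for the 2 day 7 libraries with a labelled gate, no code is given (unprefixed), and each such number occurs at 1 time only, so number and time cannot be told apart. Several libraries stand apart: the day 28 positive library E2 had 55.8% of its reads outside genes, and the undamaged libraries A6 negative, B7 negative and B7 positive had the fewest detected genes (12325 to 12977). Results are given with and without them where they move.

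Transcript levels were uneven across the family. Per coding kilobase and averaged over the 26 libraries, the highest were Rpl41, the shortest large-subunit protein, at 3341 CPM, the stalk protein Rplp1 at 2251, the small-subunit proteins Rps21 at 1872 and Rps12 at 1568, and Rpl39, a protein of the exit tunnel, at 1266. The lowest of the 76 genes with a mean of at least 3 on the log2(CPM + 0.5) scale were the paralogs Rpl7l1 at 63.5 and Rpl22l1 at 107. This measure divides by coding length alone, so a short coding part in a longer transcript raises it. Rpl41 has 75 coding bases in a transcript of 437, and Rpl39 has 153 in 612. Without the division their mean levels were 251 and 194 CPM, against 770 for Rplp1, 466 for Rps21 and 621 for Rps12. Between libraries the genes moved largely together: the correlation of a gene with the mean of the 76, over 26 libraries that include the gene itself, had a median of 0.835 and was above 0.8 for 49 genes. Rpl9 had the highest value, 0.972, and Rpl29 the lowest, 0.202, followed by the paralog Rps27l at 0.298 and Rpl4 at 0.338. The SD of log2 CPM over libraries had a median of 0.50, and of 0.29 once the family mean was subtracted.

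The steadiest genes were Rpl4 (SD 0.19), the paralog Rpl7l1 (0.25), Rps26 (0.27), Rpl22 (0.28) and Rplp0 (0.29). Rpl4, a large-subunit protein that lines the exit tunnel, ranged only from 1059 to 1640 CPM. The most variable were Rps29 (SD 1.2), Rps28 (1.07), Rpl31 (0.87), Rpl5 (0.77) and Rpl29 (0.77). Rps28 ranged from 19.2 to 388 CPM, a ratio of 20.2.

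Summed over the family, the undamaged libraries spread widely and the day 7 libraries were tightly placed. The sum was 30708 ± 7483 CPM (SD, n = 9) in undamaged hearts, with a lowest value of 17592, a median of 32587 and a highest of 38027. It was 20596 ± 1487 (n = 6) at day 7, from 18390 to 22191. The 4 day 14 libraries gave 20776 (D1 negative), 29384 (D1 positive), 26578 (D9 negative) and 19483 (D9 positive). Day 28 gave 24650 ± 5626 (n = 7), from 16359 to 30111. Undamaged and day 7 libraries overlapped only through the 2 undamaged libraries of code A6 (17592 negative and 19462 positive); the other 7 undamaged libraries were all above every day 7 library.

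**Figure D2:**
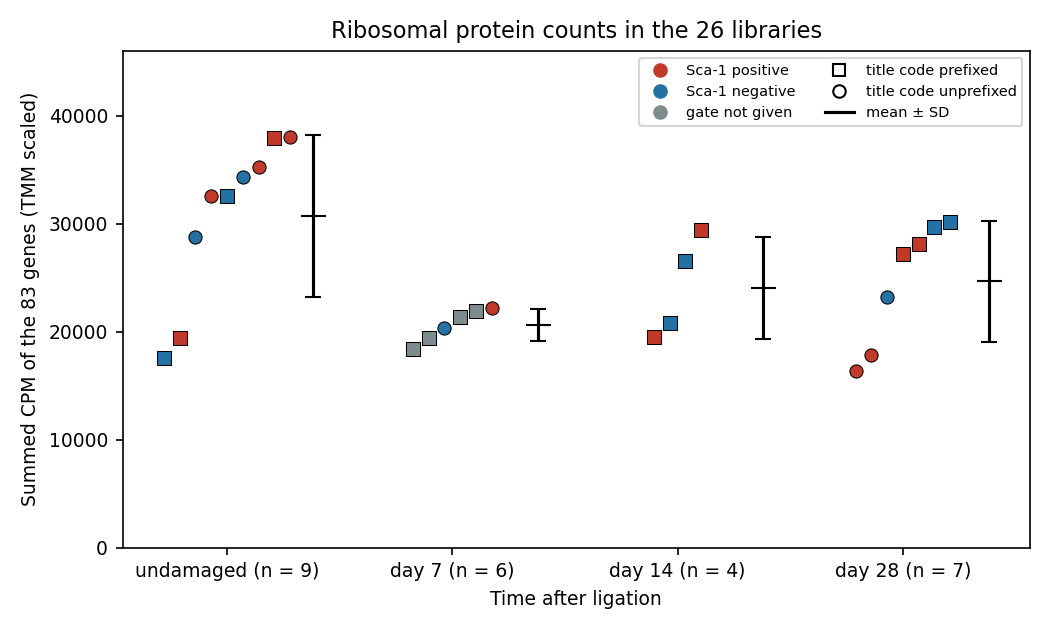
Summed CPM of the 83 genes in each library by time after ligation, coloured by labelled Sca-1 gate, with squares for prefixed and circles for unprefixed titles; black bars are mean ± SD. The day 7 libraries lie between 18390 and 22191, and the 2 undamaged libraries of code A6 lie beside them below the other undamaged ones.

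At day 7, 43 of the 80 tested members were lower than in undamaged hearts and 0 were higher (edgeR quasi-likelihood test with the title family as a term; calls are at a Benjamini-Hochberg adjusted p under 0.05, with 13392 genes in the adjustment). Over all genes tested, 11.7% were called lower and 13% higher. The median member difference was -0.60 on the log2 scale against -0.02 for all genes, and 74 of 80 were below 0. DESeq2 called 48 members lower and 0 higher, with 1769 of 13358 genes lower and 2003 higher. Both subunits were affected: 19 of 32 Rps genes (median -0.59) and 24 of 48 Rpl genes (median -0.63). The CPM ranges of the 2 groups did not overlap for 1 member, Rps13 of the small subunit, against 6.62% of all genes. Its lowest undamaged value was 254.3 CPM and its highest day 7 value 254.2, so the ranges all but touched (-0.80 ± 0.23, adjusted p = 0.0112, edgeR). Without both A6 libraries 67 members were called lower, and without both undamaged B7 libraries 24; these settings were chosen after seeing the data. In bulk samples fewer cells of a kind and less RNA per cell cannot be told apart.

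Rpl27a, a large-subunit protein, had the smallest p. It was at 162, 299 and 365 CPM (lowest, median and highest) in undamaged hearts and at 125, 145 and 165 at day 7, a log2 difference of -0.94 ± 0.18 (SE, adjusted p = 0.000303, edgeR). The ranges overlapped only through the A6 libraries, at 163 and 162. Rpl35a, of the large subunit, was at 186, 333 and 565 against 165, 191 and 203 (-0.92 ± 0.20, adjusted p = 0.00155, edgeR). The small-subunit genes Rps25 (-1.09 ± 0.23), Rps16 (-1.04 ± 0.23) and Rps12 (-0.96 ± 0.22) also fell, as did the large-subunit genes Rpl9 (-1.23 ± 0.28) and Rpl31 (-1.27 ± 0.29), with adjusted p from 0.00093 to 0.00197 in edgeR. The lowest difference was that of Rps29, a zinc-binding protein of the small-subunit head, at -1.59 ± 0.44 (adjusted p = 0.00912, edgeR). It rested mainly on the 5 unprefixed undamaged libraries, at 184 to 268 CPM. The prefixed undamaged libraries reached at most 57.0 CPM of Rps29, against 49.9 at day 7. Rpl31 was also higher in those 5 libraries (238 to 352 CPM) than in the other 21 (42.4 to 145). Its undamaged B7 values, 115 and 145 CPM, still lay above the highest day 7 value of 106. Its undamaged A6 values, 66.1 and 56.0 CPM, lay within the day 7 range of 42.4 to 106.

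Rpl5 and Rpl11, which with 5S ribosomal RNA form a particle that can bind the p53 regulator Mdm2, were both lower. Rpl5 was at 113, 454 and 591 CPM in undamaged hearts and at 103, 141 and 160 at day 7 (-1.33 ± 0.28, adjusted p = 0.00109, edgeR). Rpl11 fell by 0.77 with an adjusted p of 0.0498 in edgeR, at the edge of the threshold. Rps6, the small-subunit protein that S6 kinases phosphorylate, was at 70.4, 260 and 377 CPM against 75.6, 92.4 and 140 (-0.90 ± 0.27, adjusted p = 0.016, edgeR). The Rps6 values of the 2 groups overlap. The A6 libraries (70.4 and 79.1) lay at or below the low end of the day 7 values, B7 negative (104) within them and B7 positive (162) above them.

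The 3 stalk genes, whose proteins recruit translation factors, did not pass. Rplp0 was at 914, 1432 and 1667 CPM in undamaged hearts and 1017, 1148 and 1293 at day 7 (-0.19 ± 0.16, adjusted p = 0.435, edgeR). Rplp1 (-0.40 ± 0.25) and Rplp2 (-0.40 ± 0.22) also missed the threshold. Of 3 members often used as reference genes for quantitative PCR, Rpl13a (-0.36 ± 0.22) and Rpl32 (-0.37 ± 0.18) were not called and Rps18 was lower (-0.86 ± 0.22, adjusted p = 0.00475, edgeR). Rpl3, at the peptidyl transferase centre, was lower (-0.80 ± 0.20), as was Rpl38 (-0.84 ± 0.20), which is known for selective translation of Hox messengers, and Rpl41 was not called (-0.46 ± 0.25).

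Paralogs differed in whether they passed. Rpl7 was lower (-0.50 ± 0.16) while Rpl7l1 was at -0.24 ± 0.10 (adjusted p = 0.0772, edgeR). For Rpl22 and its paralog it was the paralog that fell: Rpl22l1 was at -0.90 ± 0.22 and Rpl22 at -0.22 ± 0.14 (adjusted p = 0.269, edgeR). The X-linked Rps4x fell by 0.68 and Rps4l, annotated as a transcribed pseudogene, was at 0.03 ± 0.18. Rps27l, a paralog known as a p53 target, was at -0.26 ± 0.25. Rpl36a (-0.61 ± 0.25), Rps3a1 (-0.58 ± 0.24) and Rpl39 (-0.51 ± 0.25) were not called. The differences between paralogs were not tested. The tissue-restricted paralogs Rpl3l, Rpl10l and Rpl39l were near or at 0 (highest values 1.99, 0.0569 and 2.39 CPM), and Rpl3l, Rpl10l and Rpl26 were too low to test.

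**Figure D3:**
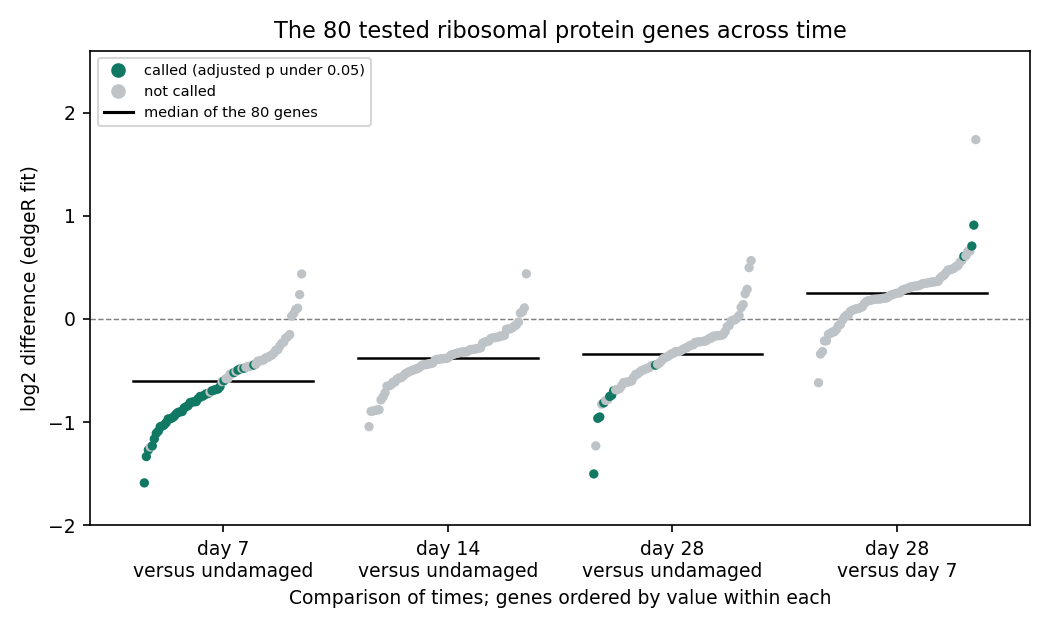
The log2 differences of the 80 tested members in the 4 time comparisons, ordered by value within each, green where adjusted p is under 0.05 and with the median as a black line. Calls are dense at day 7 (43 lower), absent at day 14 and few at day 28 (8 lower).

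The extent of shared sequence moved with the day 7 difference. Of the 17 tested members with under 25% of windows shared, 2 were called lower (median -0.38). This is near the 11.7% of all genes that were called lower. Of the 28 with 25% to 50% it was 17 (median -0.68), of the 19 with 50% to 75% it was 12 (median -0.74), and of the 16 with 75% and over it was 12 (median -0.76). Whether read assignment takes part in the difference was not tested; adding the 7 entries named as a member with the ending -ps to that member gave 43 lower, and other entries that share windows, such as BC004004 with Rpl21 (25901 counts), were not added. Relative to the summed member counts as library size, 9 members were lower at day 7 and 4 higher: Rpl5 at -0.68 ± 0.19, Rpl9 at -0.58 ± 0.17 and Rps29 at -0.96 ± 0.32 were among those lower than the family, and the higher ones were Rps26 (0.64 ± 0.16), Rpl4 (0.56 ± 0.17), Rps4l (0.55 ± 0.20) and Rplp0 (0.36 ± 0.14).

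Markers of other cells also moved with time. The 7 endothelial markers summed to 192 to 371 CPM in undamaged and 106 to 179 at day 7, the 5 epicardial ones to 0 to 8.91 and 7.06 to 75.8, the 10 leukocyte and macrophage ones to 11.1 to 40.4 and 33.2 to 67.6, and the 7 mural ones to 125 to 557 and 210 to 683. The mural genes differed in direction: the median of Acta2 was 35.5 CPM in undamaged and 175 at day 7, and that of Abcc9 61.0 and 30.5. Ptprc, which encodes CD45, was at most 1.09 CPM in undamaged and 2.05 at day 7. Lyz2, the highest of the leukocyte and macrophage genes at day 7, was at 0.703 to 14.6 and 10.2 to 24.99. Pecam1, which encodes CD31, was at 22.9 to 55.3 in undamaged and 3.47 to 11.2 at day 7. The T cell genes Cd3d and Cd3e were at 0 in all libraries of both times. Another lymphoid gene, Cd79a, reached 2.67 CPM in undamaged and 0.565 at day 7. Reads in several genes were 0.361% to 0.646% of undamaged and 0.3% to 0.37% of day 7 libraries. The part of these in the ribosomal protein difference was not tested.

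At day 14, 0 members were called by edgeR in either direction, with 16 at an unadjusted p under 0.05 and a lowest adjusted p of 0.0564 (Rpl27a). The background was 2.84% lower and 6.04% higher. DESeq2 called 5 members lower and 0 higher. The median was -0.38, and 76 of 80 members were below 0. Rpl27a was at 151, 213, 190 and 143 CPM in the 4 libraries (D1 negative, D1 positive, D9 negative, D9 positive). The values of 151 and 143 lay below all 9 undamaged libraries, and those of 213 and 190 above the A6 pair but below the other 7. Rps29 had the lowest difference, -1.04 ± 0.53, and Rps27, at 43 to 185 counts in the 4 libraries, the highest, 0.44 ± 0.58; neither passed. Without both A6 libraries 38 members were lower, and without A6 negative or A6 positive alone 8 and 6.

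At day 28, 8 members were lower and 0 higher (edgeR; 31 at an unadjusted p under 0.05), against 1.84% lower and 3.6% higher among all genes; DESeq2 called 18 lower and 0 higher. The paralog Rpl7l1 had the smallest p and was the 1 member whose groups did not overlap, against 1.08% of all genes: 44.2, 47.1 and 73.0 CPM in undamaged hearts against 35.6, 38.5 and 44.0 at day 28 (-0.45 ± 0.09, adjusted p = 0.00323, edgeR). The large-subunit genes Rpl35 (-0.96 ± 0.24), Rpl38 (-0.74 ± 0.19), Rpl7a (-0.70 ± 0.19), Rpl31 (-0.95 ± 0.27) and Rpl19 (-0.81 ± 0.24) and the small-subunit genes Rps28 (-1.50 ± 0.38) and Rps19 (-0.75 ± 0.22) were the others. Rpl30 had the highest value, 0.57 ± 0.31, and was not called. Without E2, 3 members were lower, and without the day 28 positive library F2, 2; without both A6 libraries the count was 40, and without A6 negative or A6 positive alone 19 and 18. Leaving out undamaged E1, E3, F3 positive, F3 negative, B7 negative or B7 positive gave 5 each.

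The day 28 difference depended on the title family. In the 10 unprefixed libraries 53 of 80 members were lower than in undamaged hearts (median -0.87), where 6.76% of all genes were; in the 16 prefixed libraries 1 was lower and 2 were higher (median 0.08), where 4.73% of all genes were lower and 6.84% higher. The prefixed undamaged libraries are the A6 and B7 pairs alone, 3 of which have the fewest detected genes, and E2 is 1 of the 3 unprefixed day 28 libraries. Without E2, 47 members were lower in unprefixed libraries (median -0.77), where 5.88% of all genes were. In prefixed libraries without the A6 pair 12 were lower and 0 higher (median -0.32), where 9.77% of all genes were lower and 13.4% higher. Without the B7 pair 0 were lower and 22 higher (median 0.69), where 2.88% of all genes were lower and 4.38% higher. So the direction in prefixed libraries turned with the pair used. Without the 3 libraries with the fewest genes, A6 positive was the sole prefixed undamaged library, taken to vary like the other groups, and 0 members were called in either direction (median 0.58). A test of the difference between the families, chosen after seeing the data, called 38 members (all more negative in unprefixed libraries, edgeR; median -0.97), against 16.8% of all genes. It called 32 members lower without E2 (7.01% of all genes lower) and 69 without the B7 pair (8.23%). Without the A6 pair it called 29 lower and 1 higher (15.1% and 12.2% of all genes). Without the 3 libraries with the fewest genes its median over the members was -1.49. For Rps4x the within-family values were -0.95 ± 0.15 unprefixed and 0.57 ± 0.16 prefixed, both past the threshold; for Rpl10 they were -1.17 ± 0.15 and 0.46 ± 0.21, and for Rpl37a -1.60 ± 0.24 and 0.40 ± 0.22. The summed level was 33765 ± 3443 CPM (n = 5) in undamaged and 19164 ± 3625 (n = 3) in day 28 unprefixed libraries, and 26886 ± 9923 (n = 4) and 28765 ± 1371 (n = 4) in prefixed ones.

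At day 7 members were lower in both families, but in prefixed libraries this rested on the undamaged B7 pair. In unprefixed libraries, 2 of which were from day 7, 41 members were lower (median -0.68; 7.37% of all genes lower) and in prefixed ones 12 (median -0.45; 8.81% of all genes). The 12 in prefixed libraries included Rpl24 (-0.72 ± 0.19), Rpl35a (-0.99 ± 0.28), Rpl27a (-0.70 ± 0.21) and Rps13 (-1.01 ± 0.27). The test of the difference between families called 5 members, Rps4x, Rpl28, Rpl23, Rps6 and Rpl21, against 2.6% of all genes. Without the A6 pair 57 members were lower in prefixed libraries (median -0.83), where 14.1% of all genes were lower. Without the B7 pair 0 were lower and 1 was higher (median 0.19), where 4.59% of all genes were lower and 6.83% higher. Without the 3 libraries with the fewest genes the median was 0.09. In unprefixed libraries without E2, 51 members were lower and 1 higher (10.9% of all genes lower and 11.6% higher). The test of the difference called 5 lower and 6 higher without the A6 pair, near the 8.71% and 7.07% of all genes. It called 22 lower without the B7 pair (1.46% of all genes lower) and 9 lower without E2 (2.01%). Without the 3 libraries with the fewest genes its median over the members was -0.69.

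**Figure D4:**
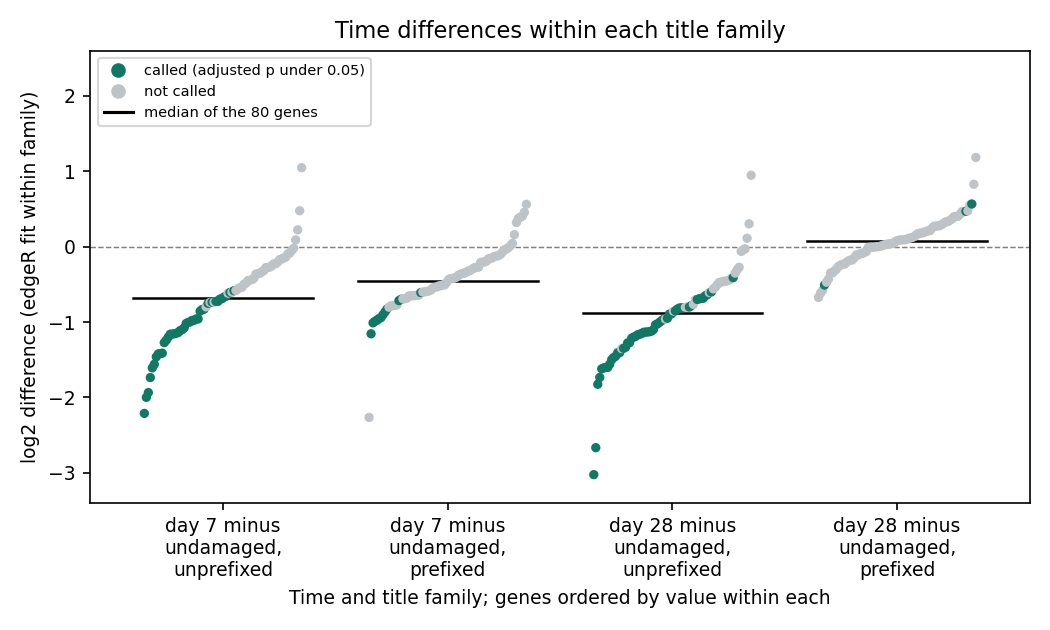
The log2 differences of the 80 tested members against undamaged hearts within unprefixed and within prefixed libraries, at day 7 and day 28, green where called and with the median as a black line. Medians lie below 0 in both families at day 7 (-0.68 and -0.45) but only in unprefixed libraries at day 28 (-0.87, against 0.08). Without the undamaged B7 pair the prefixed medians are 0.19 and 0.69, and without the A6 pair -0.83 and -0.32.

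Averaged over times, prefixed against unprefixed titles gave 0 calls among members in edgeR (21 at an unadjusted p under 0.05; DESeq2 3 higher and 1 lower), where 0.112% of all genes were called. The average hides opposite values: among undamaged libraries alone 17 members were lower in prefixed ones (median -0.29; 3.57% of all genes lower), and among day 28 libraries alone 14 were higher (median 0.60; 3.15% of all genes higher). Some members were high in the 5 unprefixed undamaged libraries alone. For 18 of 80 these 5 all exceeded the other 21, against 1.03% of all genes. Rps29 was at 184 to 268 CPM there and at 14.4 to 57.0 in the other 21, and the undamaged B7 libraries, with a summed level as high, had 57.0 and 46.1. Rps28 was at 213 to 388 against 19.2 to 108, Rps6 at 260 to 377 against 70.4 to 162, and Rpl5 at 454 to 591 against 103 to 361. This comparison was also chosen after seeing the values.

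From day 7 to day 28, 3 members were higher and 0 lower (edgeR; 14 at an unadjusted p under 0.05; DESeq2 4 higher and 0 lower), against 6.56% and 6.4% of all genes, and the median was 0.25. Rpl35a rose from 165 to 203 CPM at day 7 to 207 to 505 at day 28 (0.91 ± 0.21, adjusted p = 0.00491, edgeR), and the ranges all but touched. Rpl10, near the peptidyl transferase centre, also rose (0.71 ± 0.23). Rpl29 was lowest at -0.62 ± 0.33 and Rpl39l, close to 0 CPM, highest at 1.74 ± 0.95; neither passed. The count was 8 without E2, 7 without F2, 5 without either A6 library, and 1 without day 7 1A, day 7 4B or day 28 negative B6. It was 12 in prefixed libraries alone (6.97% of all genes higher), and in unprefixed ones 0 were higher and 1 lower (2.12% of all genes lower). This comparison shares its day 7 libraries with the first and its day 28 libraries with the third.

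Between the gates no member was called by edgeR in undamaged hearts, at day 14 or at day 28. Day 7, with 1 labelled library of each gate, was not tested. In undamaged hearts the median of Sca-1 positive minus negative was 0.21, with 73 of 80 above 0, and it was -0.06 without the 3 libraries with the fewest genes; at day 14 it was 0.06 (58 above 0), at day 28 -0.29 (7 above 0) and in the mean of the 3 times -0.01 (34 above 0). The background of called genes was 3.51%, 0.0652%, 0.775% and 5.06% in that order. The members at an unadjusted p under 0.05 numbered 0, 0, 2 and 0, and DESeq2 called 0 in each. Rpl8, of the large-subunit core, and Rps13 were the 2 at day 28: Rpl8 averaged 580 ± 241 CPM (SD, n = 4) in positive and 868 ± 200 (n = 3) in negative libraries (-0.56 ± 0.24, adjusted p = 0.295, edgeR), and Rps13 was at -0.67 ± 0.31 (adjusted p = 0.316, edgeR). The unprefixed positive libraries E2 and F2 held 296 and 466 CPM of Rpl8, and the prefixed positive B4 and B6 held 809 and 748. The negative E4 (unprefixed), B4 and B6 held 644, 1028 and 932. Over 31 alternatives, scaling to the summed members left out, the day 28 median of the members ran from -0.46 to -0.08. In undamaged hearts Rpl39 came closest (0.65 ± 0.32, adjusted p = 0.323, edgeR). The gate difference at day 28 minus that in undamaged hearts had a median of -0.52 and called 0 members (0 at an unadjusted p under 0.05; edgeR).

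Where one replicate code occurs in both gates the pairs could be compared directly over the 76 better-counted members. More members were higher in the positive library in the 3 undamaged pairs: 60 in F3, 59 in A6 and 64 in B7. At day 14 the 2 pairs went opposite ways, with 75 higher in D1 and 3 in D9. At day 28 it was 22 in B4 and 26 in B6. The median log2 differences were 0.15, 0.16, 0.23, 0.49, -0.45, -0.07 and -0.13. The members of a pair are counted in the same 2 libraries and are not replicates. The 2 day 7 libraries with a labelled gate, which have no code, gave 63 higher in the positive one, at a median of 0.13, with no replicate check.

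**Figure D5:**
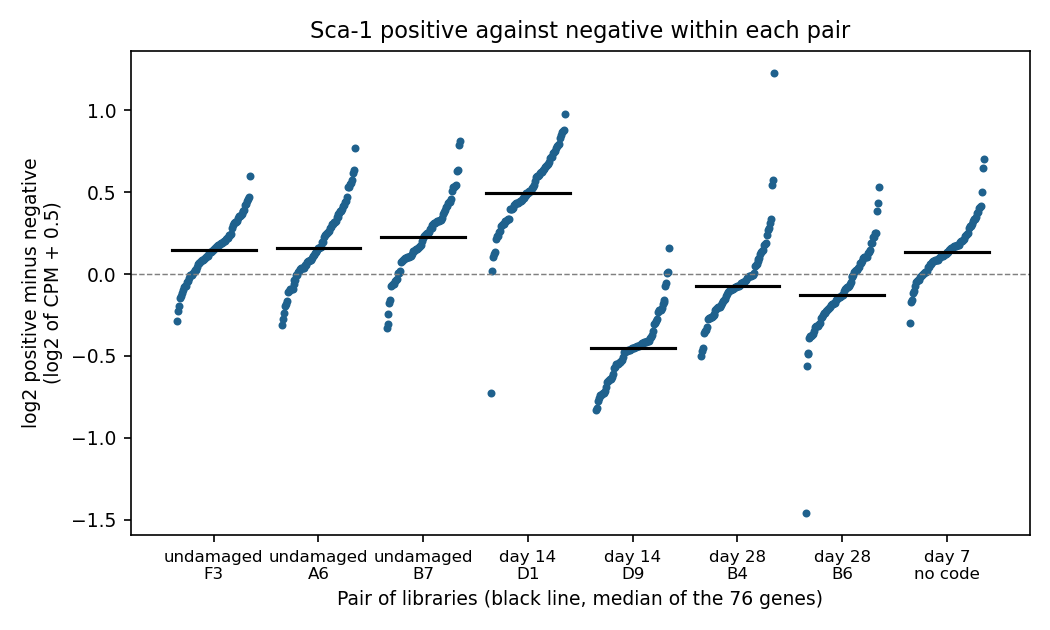
The log2 difference of Sca-1 positive minus negative, on the log2(CPM + 0.5) scale, for 76 members in each pair of libraries, ordered by value, with the median as a black line. The 3 undamaged pairs have medians of 0.15 to 0.23, and the day 14 pairs lie on opposite sides of 0.

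Some ribosomal proteins outside the naming rule were also lower at day 7, while factors and assembly genes were called in both directions. Over all genes 11.7% were lower and 13% higher at day 7, and counts near these shares are not particular to a list. Of 6 tested such proteins 3 were lower and 0 higher (median -0.54): among them were Fau (-0.80 ± 0.22), which encodes a ribosomal protein fused to a ubiquitin-like part, and Rpsa (-0.74 ± 0.20). Of 36 translation factors and related genes 7 were lower and 3 higher (median -0.12). Pabpc1, the poly(A)-binding protein, rose from 480 to 866 mean CPM (1.04 ± 0.20) and the scaffold Eif4g1 rose (0.51 ± 0.12), while Eif2s2, a subunit of the initiator tRNA carrier, fell (-0.53 ± 0.13), as did Tpt1 (-0.54 ± 0.19). All of these passed at an adjusted p under 0.05 in edgeR.

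Among 44 ribosome biogenesis genes 2 were higher and 2 lower (median -0.03). Of 77 mitochondrial ribosomal proteins, which belong to the separate ribosome of that organelle, 12 were lower and 0 higher (median -0.26), led by Mrpl4 (-0.64 ± 0.15), Mrpl27 and Mrpl20. Of 25 genes of growth control 3 were higher and 2 lower (median 0.08): Larp1, which binds TOP messengers, was at 0.32 ± 0.10, the kinase gene Rps6kb1 at 0.53 ± 0.17, Eif4ebp1 at 0.50 ± 0.14, Atf4 at -0.51 ± 0.17, and Mycn, at 3.24 mean CPM against 9.86, at -1.69 ± 0.35. Of 14 snoRNA host genes 0 were called (median 0.01), and of 17 chaperones of new proteins 1 was higher and 3 lower (median -0.15), among them Hspa8 (-0.95 ± 0.30). At day 14, 3 of 44 biogenesis genes (Ebna1bp2, Rrs1 and Polr1b) and 2 of 25 growth control genes (Mycn and Atf4) were lower. So was 1 of 77 mitochondrial ribosomal proteins, and 0 genes of these 7 lists were higher. Over all genes 2.84% were lower and 6.04% higher at day 14. At day 28, Rpl37rt, a copy of Rpl37, was higher (0.89 log2) and 1 other ribosomal protein outside the rule was lower. The other 6 lists had 1 gene higher and 3 lower. Over all genes 1.84% were lower and 3.6% higher at day 28. Counts near the shares of a time are not particular to a list.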

How the data were processed

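Per the labels' protocols, polyadenylated RNA of the 26 samples was turned into strand-specific libraries and read from both ends. The authors deposited read counts, not normalized, for 24421 genes and 2 entries naming no gene, which stayed out of library sizes and tests: reads outside genes (5.53% to 55.8%) and reads in several genes (0.128% to 0.646%). The submitters' processing notes name bcl2fastq, TopHat, Bowtie2, STAR, Cufflinks and mm10; the counting program, its handling of reads with several matches and its annotation are not given in the sources used here. Counts carry no molecular identifiers, so a floor of 3 counts (0.0614 to 0.442 CPM per library) covers counting error only.

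Tests used edgeR 4.0.16 in R 4.3.3: TMM factors, filterByExpr, a quasi-likelihood fit of time plus title family on 26 libraries (13392 genes, 80 of 83 members), and of 6 groups plus family on the 20 gated libraries outside day 7 (13812 genes). Calls are two-sided with Benjamini-Hochberg adjusted p under 0.05. DESeq2 1.42.0 and limma 3.58.1 were alternatives. Scripts were tested on simulated data. Shared windows came from GENCODE M21 (GRCm38), promoters from RefSeq (GRCm38.p6). The members and lists were chosen with earlier results of these data known.

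Named genes were anchors (stalk, p53-linked, reference and paralog genes), up to 8 called members per direction with the smallest p, the extremes of each comparison, the 5 most and least variable, and up to 3 genes a list; other genes named were chosen after their values were seen. For the 7 codes present in both gates, deviations from the group means correlated at 0.184 to 0.412. The codes were treated as pairs in the direct comparison of the gates and in the replicate block alternatives. The main edgeR fits had no term for the code and took the libraries of a pair as independent, so their p-values leave this pairing out. The values of some genes are not reported here.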

Additional observations from a re-analysis of the deposited data

Results flagged for a closer look

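The day 28 difference from undamaged hearts differed between unprefixed and prefixed libraries for 38 members, and the day 7 difference for 5, by a test of the difference itself. Over 112 combinations of a gene or the family sum with a time, 3 values, from 2 libraries, lay far from the rest of their group, where chance flags about 1 in 20 groups. The day 7 library 1A, with no labelled gate, had 47.2 CPM of Rpl38, the next lowest being 72.5, and 353 CPM of Rplp2, the next highest being 236. The day 28 positive library E2 had 202 CPM of Rplp1, the next lowest being 636; this is the library with 55.8% of reads outside genes.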

How the results depend on the processing

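At day 7, 33 to 58 members were lower than in undamaged hearts when 1 library at a time was left out; scaling to the summed member counts gave 9 lower and 4 higher and prefixed libraries alone 12 lower. Leaving libraries out after seeing the data gave 67 lower without the A6 pair and 24 without the B7 pair. Without the 3 undamaged libraries with the fewest genes 1 member was higher, and the count of lower ones there is not given here. The day 7 median of the members was below 0 in all 39 alternatives, scaling to the summed members left out. It ran from -0.87 to -0.45. At day 14 the count of lower members was 2 with library totals, 5 with DESeq2, 9 with no family term, 1 with the gate word of the deposited file as a term, 10 without the 3 libraries with the fewest genes and 38 without the A6 pair; 1 was higher without the B7 pair, and leaving out 1 library gave 0 to 8 lower. At day 28 it was 22 with library totals, 18 with DESeq2, 2 lower and 2 higher with scaling to the members, 1 lower and 2 higher in prefixed and 53 lower in unprefixed libraries, 3 in the 20 gated libraries, 19 lower and 1 higher without the 3 libraries with the fewest genes, 40 without the A6 pair and 2 without the B7 pair; leaving out 1 library gave 2 to 19. For day 28 versus day 7 the count of higher members was 5 with library totals, 1 with scaling to the members, 12 in prefixed and 0 in unprefixed libraries (1 lower), 8 without the 3 libraries with the fewest genes (1 lower) and 9 without the A6 pair; leaving out 1 library gave 1 to 8. Rpl10 changed direction there in unprefixed libraries alone (-0.01469). For title families, DESeq2 gave 3 higher and 1 lower, the 20 gated libraries 1 higher, day 28 alone 14 higher, undamaged alone 17 lower, and leaving out the A6 pair 4 higher; leaving out 1 library gave 0 to 1 higher. The causes were not tested. The replicate block (limma-voom for times) gave 39 lower at day 7, 0 at day 14, 8 at day 28 and 2 higher from day 7 to day 28, and 0 members between gates; it changed no other count of calls by over 1.5 times. Of 749 values of single genes under alternatives, 748 kept their direction and 660 their call. Library totals moved the median of all genes at day 7 by -0.12, and scaling to the members moved it by 0.49 at day 7, 0.29 at day 14 and 0.29 at day 28. Genes near the floor of 3 counts, such as Rpl26, could not be compared.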
